A study of Mus musculus with 8 samples.

Results

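Genomic imprinting silences 1 parental copy of a gene, and many imprinted clusters carry a long noncoding RNA beside the genes it accompanies. The accessibility of 10 autosomal imprinted genes was examined here: H19, Igf2, Dlk1, Meg3, Kcnq1ot1, Airn, Igf2r, Peg3, Grb10 and Gnas. Every ATAC-seq peak that overlapped one of these gene bodies or the 20 kb on either side of it was taken. Peaks of the 8 libraries that overlapped were merged into regions, and 102 of the 123260 regions of the whole data set lay in these windows. They rested on 392 of 501728 deposited peaks.

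ATAC-seq uses the Tn5 transposase to insert sequencing adapters into open chromatin. LSK+ cells, which are lineage-negative, c-Kit positive and Sca-1 positive and hold the hematopoietic stem cells, and LSK− cells, which lack Sca-1 and are mostly myeloid and erythroid progenitors, had been sorted from the bone marrow of female mice aged 4.5 months on a 129Sv4/Jae x B6 background. Each cell type came from wild-type (WT) mice and from XistΔ/Δ mice, in which Vav-iCre, a Cre driven by the Vav1 promoter that is active across blood cells, had deleted the floxed Xist gene, and each of the 4 groups had 2 libraries, made from about 10000 cells per transposition. The study calls the 2 libraries of a group biological replicates, but the labels do not say whether they came from separate mice. The p-values thus measure the spread between these libraries, which may be partly technical. The files hold 1 peak list per library and no read counts, and the lists do not separate the parental alleles.

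Imprints are laid down as DNA methylation in the egg or the sperm and are read through control regions, stretches that stay methylated on 1 parental copy and unmethylated on the other. CTCF, an insulator protein, binds the unmethylated H19 control region, YY1 binds the unmethylated Peg3 intron, and ZFP57 binds methylated imprinted regions through a short hexamer. Several of the noncoding RNAs, among them Airn and Kcnq1ot1, start inside an intron of a neighboring gene on the opposite strand and are made from the paternal copy.

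Sequences of selected elements are shown first, in mm10 (GRCm38) coordinates and credited to the RefSeq GRCm38.p6 genome, each on the strand of its gene. The first 3 stretches come from the H19 control region, upstream of H19, on the minus strand at chr7:142582025-142582055, chr7:142580755-142580785 and chr7:142580300-142580330. Capitals mark the letters CGNGGNGGC, a part of the CTCF motif, searched on both strands.

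H19 CTCF match 1: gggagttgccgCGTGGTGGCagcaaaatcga

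H19 CTCF match 2: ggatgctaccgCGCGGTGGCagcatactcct

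H19 CTCF match 3: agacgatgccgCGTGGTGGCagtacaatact

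These were the matches of the 3-kb control window. A peak covered the first in 4 libraries, the second in 6 and the third in 3. The letters occurred in 4.24% of 300-base stretches around the strongest summit of all 123260 regions and in 8 of the 102 imprinted regions. The Peg3 stretch (chr7:6729471-6729609, minus strand) lies in the first intron, and capitals mark AANATGGCG, the YY1 core, on either strand. Its 2 matches were the ones that a peak covered in all 8 libraries, out of 10 in the Peg3 window. Among 300-base stretches of all regions 0.958% held the letters, and 0.0292% held them 2 or more times.

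Peg3 intron: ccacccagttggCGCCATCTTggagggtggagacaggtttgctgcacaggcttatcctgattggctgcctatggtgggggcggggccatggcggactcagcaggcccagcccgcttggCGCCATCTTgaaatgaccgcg

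The Kcnq1ot1 stretch (chr7:143296592-143296741, minus strand) is centered on the strongest summit at the promoter, the strongest of the 10 genes in every library. Capitals mark CCAAT, the NF-Y box, chosen after the sequence had been seen. The stretch shown held 3 copies, and so did the 300 bases around the same summit. Of 300-base stretches of all regions, 1.32% held 3 or more, counted on both strands.

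Kcnq1ot1 promoter: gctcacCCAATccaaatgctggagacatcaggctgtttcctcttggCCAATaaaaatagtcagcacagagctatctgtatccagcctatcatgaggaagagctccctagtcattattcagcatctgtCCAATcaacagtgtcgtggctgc

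For Grb10, the internal island (chr11:12026070-12026262, minus strand) is shown with the ZFP57 hexamer TGCCGC in capitals on either strand, and the LSK− element further into the gene (chr11:12010175-12010393, minus strand) with the letters AGATAA, the site of the blood-forming GATA factors, in capitals, chosen after the values had been seen. The island stretch was drawn to span all 4 hexamer matches of the Grb10 island window. The 300 bases around the island's strongest summit held 1 of them, where 6.99% of 300-base stretches around all summits held the hexamer. AGATAA was present in 21.4%, and 0.466% held it 3 or more times, as the Grb10 element did.

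Grb10 island: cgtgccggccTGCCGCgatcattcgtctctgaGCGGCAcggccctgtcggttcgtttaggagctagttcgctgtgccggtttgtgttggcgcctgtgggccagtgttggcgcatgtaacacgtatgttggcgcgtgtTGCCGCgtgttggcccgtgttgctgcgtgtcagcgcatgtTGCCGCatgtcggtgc

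Grb10 intronic element: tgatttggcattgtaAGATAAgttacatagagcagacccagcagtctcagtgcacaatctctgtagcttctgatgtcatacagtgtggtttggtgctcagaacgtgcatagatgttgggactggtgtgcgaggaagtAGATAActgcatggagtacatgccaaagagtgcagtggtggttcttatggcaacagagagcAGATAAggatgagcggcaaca

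The neighboring pair of elements in an Igf2r intron, one called in LSK− cells (chr17:12724127-12724230) and the other in LSK+ cells (chr17:12725493-12725612), both on the minus strand, is given with AGATAA in capitals where present on either strand. The 300 bases around the LSK− summit held 2 matches and those around the LSK+ summit held none, where 3.73% of all stretches held 2 or more. The last stretch is the Gnas exon 1A peak (chr2:174327394-174327513, plus strand), an imprinted control element, with CpG dinucleotides in capitals.

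Igf2r LSK− element: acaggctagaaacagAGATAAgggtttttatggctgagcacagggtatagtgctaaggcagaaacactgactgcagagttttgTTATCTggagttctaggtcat

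Igf2r LSK+ element: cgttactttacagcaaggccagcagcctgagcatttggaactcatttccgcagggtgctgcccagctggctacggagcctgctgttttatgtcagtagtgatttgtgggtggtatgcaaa

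Gnas exon 1A: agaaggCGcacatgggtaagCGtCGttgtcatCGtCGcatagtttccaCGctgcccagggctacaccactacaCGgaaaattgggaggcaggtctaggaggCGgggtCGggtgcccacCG

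A match is a description of the letters in the window and not of binding. The middle imprinted region had 5.5 CpG in 300 bases and a GC content of 51.3%, against 4 CpG and 48.7% over all regions. Of the regions listed in all 8 libraries, the Igf2r promoter held 36 CpG, the Gs-alpha promoter 32, the Grb10 island 30 and exon 1A 28. They exceeded 97.8%, 96.6%, 95.8% and 94.9% of all regions. Other CpG-rich regions were listed in fewer libraries. A Grb10 upstream start held 45 (4 libraries), an Igf2 exon 41 (1), the Dlk1 start 35 (6) and an Igf2 intron 33 (5).

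Peak strength was compared as the percentile of a peak within its own library's list, ranked by the −log10 p of the peak caller, so that 100 is the strongest peak and 0 is written where no peak was listed. A peak counted as a promoter peak of a gene when its summit lay within 3 kb of an annotated transcription start site (TSS), and the strongest was used. Values are given below with replicate 1 before replicate 2. List length ran from 29829 to 91590 peaks, and the imprinted loci took 0.0720% to 0.0839% of a list. The most common background under the peaks of a library, solved from the caller's fold and p, was 0.482 to 3.87 fragments. It is taken as the background of the library and stands in for depth. Among the 500 weakest peaks of each list, the lowest summit held 5 to 13 fragments, depending on the library. Where the local background was raised, a weak peak held more. A Gs-alpha peak of WT LSK− replicate 1 had 31 fragments at a percentile of 1.39. A 0 means not listed at the depth and local background of that library. At the deleted gene itself, Xist, the promoter peak stood at 51.2 to 80.6 in the 4 WT libraries. Among the XistΔ/Δ libraries 3 listed none and LSK− replicate 2 listed one at 26.9.

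The sort was checked on marker promoters. Of the LSK− list, Epor, Ms4a3 and Gata1 were higher in every LSK− library than in the LSK+ libraries of the same genotype, Csf1r was lower, and Klf1, Elane, Mpo and Cebpe overlapped. Ly6a, which encodes Sca-1, had a promoter peak in 2 libraries, 1 of each cell type. Of 7 genes of lineage-positive cells 5 had no promoter peak. Hbb-bs, the adult beta globin gene, stood at 79.1, 55.7, 84.1 and 36.5 in the 4 LSK− libraries and at 0 in LSK+.

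All 10 genes had a promoter peak in at least 1 library, among 27184 such genes in all. In 6 of the 10 (Kcnq1ot1, Airn, Igf2r, Peg3, Grb10 and Gnas) it was listed in all 8 libraries, against 59.2% of all genes with a promoter peak. Of the 102 regions 17 were listed in all 8 libraries, against 17.3% of all regions, and 25 in 1 library, 13 of them in XistΔ/Δ LSK− replicate 1, which has the longest list. Region density ranged from 3.76 per 100 kb around Kcnq1ot1 and 4.51 around Peg3 to 18.3 around Airn and 22.0 around Igf2r, whose windows overlap and share 17 regions. The whole genome had 4.68.

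**Figure D1:**
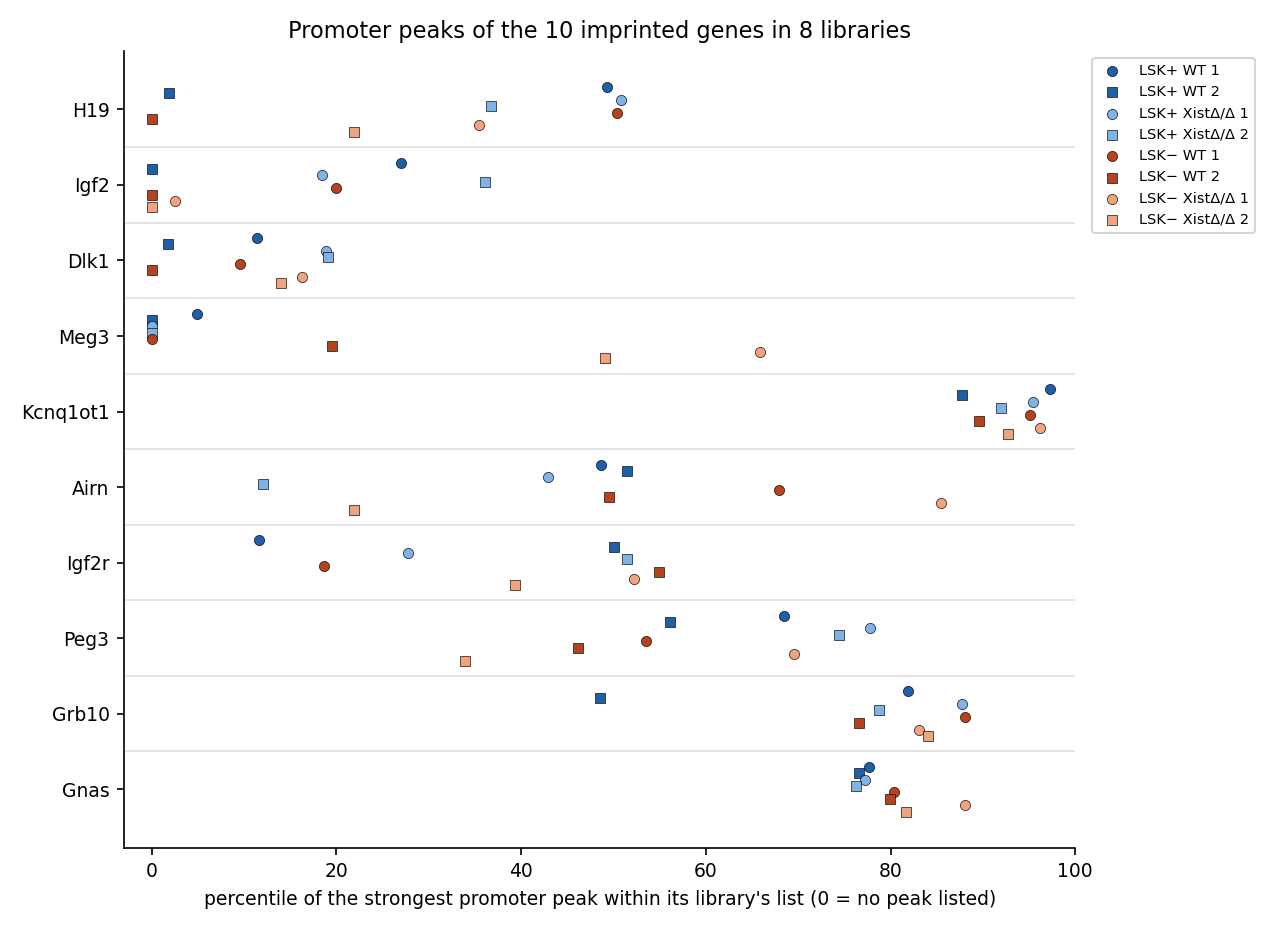
Percentile of the strongest promoter peak (horizontal axis, 0 where none was listed) for each of the 10 genes (vertical axis), with 1 point per library, circles for replicate 1 and squares for replicate 2. Kcnq1ot1 sits at 87.8 or above in every library, Grb10 and Gnas mostly above 70, and Igf2, Dlk1 and Meg3 are low or absent in most libraries. The Airn points of both WT LSK− libraries and XistΔ/Δ LSK− replicate 1 are an internal start site. The main Airn start site stood at 37.5, 18.0 and 48.2 there.

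Kcnq1ot1 had the highest promoter percentile of the 10 genes in every library. Kcnq1ot1 (chr7:143203458-143296549, minus strand) is a long noncoding RNA that starts in an intron of Kcnq1, and its promoter is the maternally methylated control region KvDMR1. Percentiles were 97.2 and 87.8 in WT LSK+, 95.5 and 92.0 in XistΔ/Δ LSK+, 95.1 and 89.6 in WT LSK−, and 96.2 and 92.7 in XistΔ/Δ LSK− cells. The groups overlapped in both directions. Summits lay 30 to 123 bp upstream of the TSS with 61 to 293 fragments and a fold enrichment of 14.3 to 23.5. XistΔ/Δ minus WT was 1.68 percentile points and LSK+ minus LSK− was −0.289 points, both smaller than the spread within WT LSK+ (92.5 ± 6.70, SD, n = 2). The other 4 regions of the window were weak, the highest at 23.2, and none was listed in more than 2 libraries.

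The Gnas locus (chr2:174284320-174346744, plus strand) has several promoters with different imprints. Nesp is maternal, Nespas, an antisense RNA, and Gnasxl are paternal, exon 1A starts a paternal transcript from the region that controls the imprint of Gs-alpha, and Gs-alpha itself, the stimulatory G-protein subunit, is expressed from both copies in most tissues. Exon 1A (region chr2:174327144-174327975) gave 77.7 and 76.6 in WT LSK+, 77.2 and 76.2 in XistΔ/Δ LSK+, 80.4 and 79.9 in WT LSK−, and 88.1 and 81.7 in XistΔ/Δ LSK− cells. Every LSK− library stood above every LSK+ library, by 5.61 points on average. It was also the strongest Gnas promoter peak, 314 bp upstream of an annotated TSS in 6 libraries, and its summit held 57 to 247 fragments. The Gs-alpha promoter peak was lower (24.9 to 74.0), with a fold of 3.07 to 6.90. The local background that the caller used there was 8.503 to 13.5 times that of the library for the strongest peak. At exon 1A the background was raised as well, at 7.87 to 13.2 times, and the fold was 6.68 to 9.06. For Gs-alpha, replicate 2 of WT LSK−, the shorter list, stood at 50.7 and replicate 1 at 24.9.

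The 3 upstream Gnas promoters differed by library and cell type. Nespas (region chr2:174295405-174295837) was at 0 in 3 LSK+ libraries and 1.11 in XistΔ/Δ LSK+ replicate 2, and at 30.7 and 32.8 in WT LSK− and 40.0 and 29.97 in XistΔ/Δ LSK− cells. Gnasxl (region chr2:174296982-174297563) had no listed peak in LSK+ and stood at 27.4 and 1.98 in WT LSK− and 63.1 and 16.6 in XistΔ/Δ LSK− cells. Both were LSK− peaks of low to middle rank, while the Nesp promoter, at 15.2 to 31.1, was listed only in the 4 replicate 1 libraries, 2 of each cell type. Downstream, an intronic region (chr2:174344003-174344844) reached 95.7 and 60.4 in WT LSK+, 98.2 and 90.6 in XistΔ/Δ LSK+, 90.3 and 67.2 in WT LSK−, and 86.5 and 81.6 in XistΔ/Δ LSK− cells. This was the strongest region of the locus in 4 libraries. The cell types overlapped in WT but not in XistΔ/Δ, where LSK+ was higher, and the genotypes overlapped in both cell types.

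**Figure D2:**
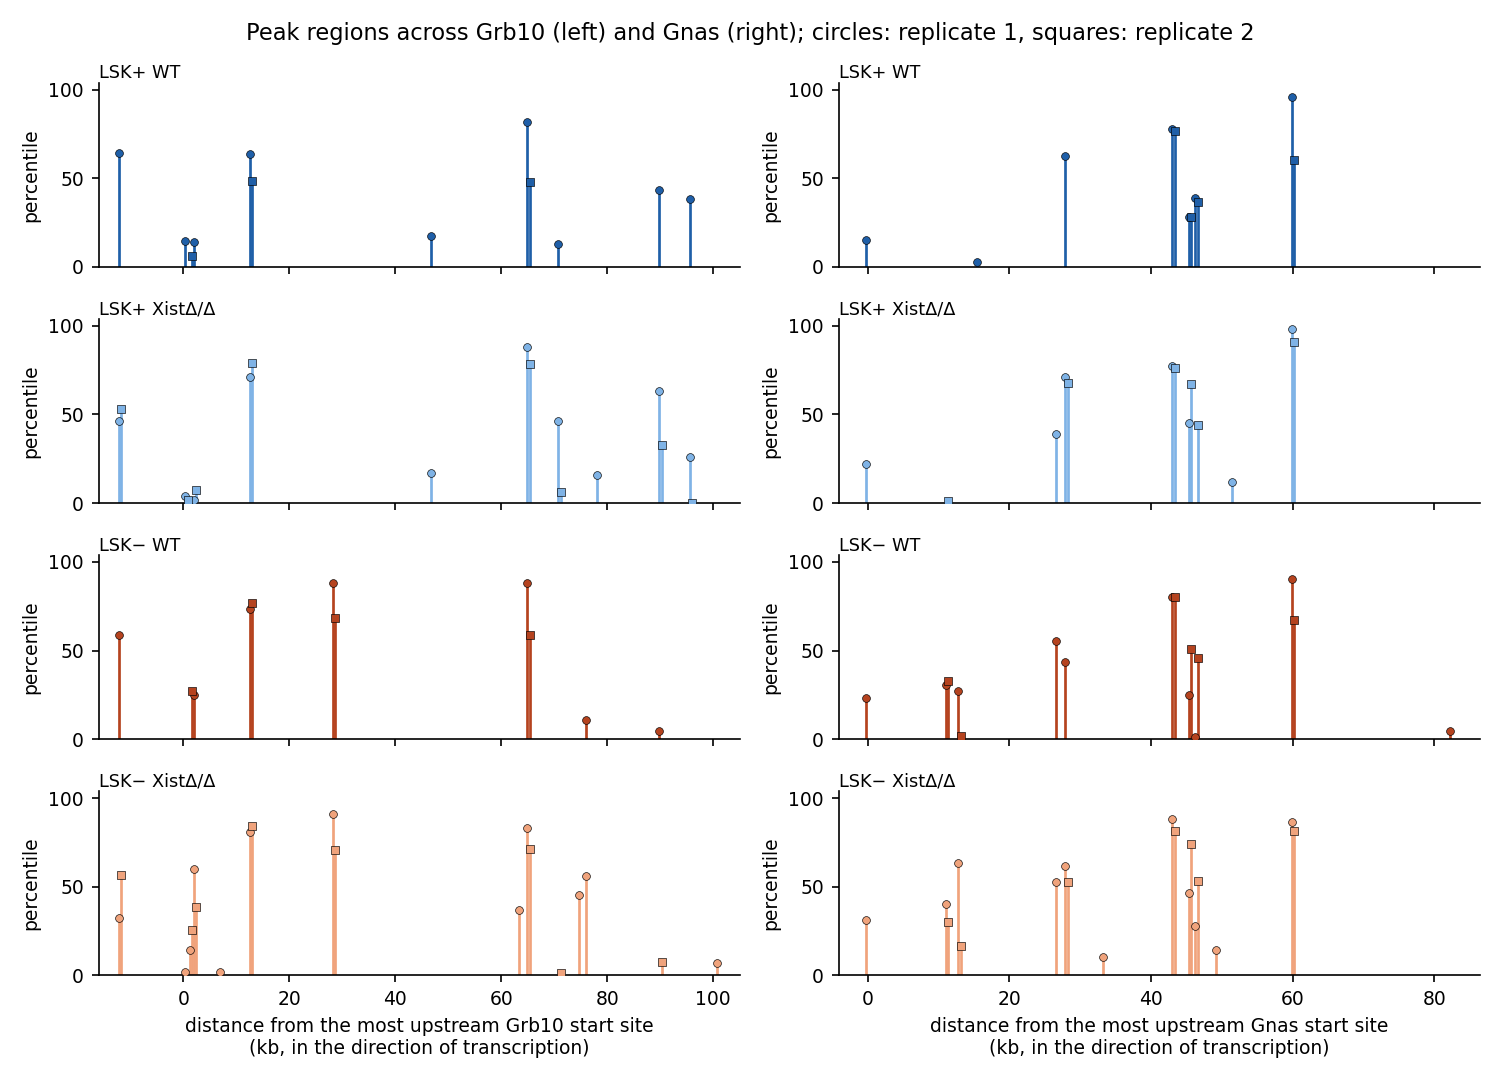
Each stem is a peak region, its height the percentile in 1 library (circles replicate 1, squares replicate 2) and its place the distance in kb from the most upstream start site of Grb10 (left) or Gnas (right), in the direction of transcription, with 1 row per group. The Grb10 stems near 28 kb and the Gnas stems near 11 and 13 kb stand in LSK− cells with at most 1 LSK+ peak at 1.11, whereas the Gnas stems near 43 and 60 kb stand in all groups.

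Grb10 (chr11:11930508-12038683, minus strand) encodes an adaptor that dampens insulin and growth factor signaling, and carries an internal CpG island that is methylated on the maternal copy. The island region (chr11:12025423-12026546) stood at 63.9 and 48.5 in WT LSK+, 70.9 and 78.7 in XistΔ/Δ LSK+, 73.3 and 76.6 in WT LSK−, and 80.8 and 84.1 in XistΔ/Δ LSK− cells. It was higher in LSK− than in LSK+ within each genotype, and higher in XistΔ/Δ than in WT within each cell type. The differences were 13.2 points for LSK− over LSK+ and 13.02 points for XistΔ/Δ over WT. The gene-level promoter value mixed this island with a second intronic peak (chr11:11973206-11973831) close to another annotated TSS, which was the stronger in 4 libraries, and it separated neither comparison. A region at an upstream start site (chr11:12036958-12037528) was weak, with a peak in 4 libraries and at most 27.2, and its neighbor (chr11:12036133-12036715) reached 60.1 in 1 library.

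The clearest difference between the cell types was an intronic Grb10 element at chr11:12009904-12010648, 17.7 kb from the nearest annotated TSS. It had no peak in any LSK+ library and stood at 88.2 and 68.3 in WT LSK− and at 90.8 and 70.5 in XistΔ/Δ LSK− cells. Its summit held 66, 30, 158 and 33 fragments there. Among the 500 weakest peaks of each LSK+ list, the lowest summit held 5 to 8. All LSK− libraries were thus well inside the listed range and LSK+ libraries below it, a difference of 79.5 points (exact permutation test within genotype, two-sided, p = 0.0556, the smallest that the 36 arrangements allow; Benjamini-Hochberg adjusted over all 123260 regions, 0.627). Of the erythroid genes, the Hbb-bs, Epor and Gata1 promoters were also higher in LSK−. Klf1, a transcription factor of the same lineage, leaned the other way, at 90.2, 89.97, 91.1 and 94.7 in LSK+ and 78.5, 88.3, 90.1 and 92.5 in LSK− libraries. The part of erythroid cells in the Grb10 difference was not tested.

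Igf2r (chr17:12682406-12769664, minus strand) encodes the receptor that clears Igf2, and Airn (chr17:12741311-12860136, plus strand) is the paternal noncoding RNA that starts in an Igf2r intron and runs across the Igf2r promoter. Together their windows held 40 regions, 8 of them with a peak in all 8 libraries. At the Igf2r promoter (chr17:12769275-12770232) the percentiles were 11.7 and 50.1 in WT LSK+, 27.7 and 51.5 in XistΔ/Δ LSK+, 18.6 and 54.9 in WT LSK−, and 52.2 and 39.4 in XistΔ/Δ LSK− cells. Replicate 2 was the higher in 3 of 4 groups, and neither cell type nor genotype separated. Airn at its main start site (chr17:12741210-12741624) gave 48.6 and 51.5 in WT LSK+, 42.9 and 12.1 in XistΔ/Δ LSK+, 37.5 and 18.0 in WT LSK−, and 48.2 and 21.9 in XistΔ/Δ LSK− cells. WT LSK+ stood above XistΔ/Δ LSK+ and above WT LSK−, but the genotypes overlapped in LSK− and the cell types in XistΔ/Δ.

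An annotated internal Airn start site (chr17:12815760-12816431, on an Airn exon) had no peak in LSK+ and stood at 68.0 and 49.5 in WT LSK− and 85.4 and 15.5 in XistΔ/Δ LSK− cells. Within Igf2r, the region chr17:12723962-12724701 also had no LSK+ peak and stood at 75.4 and 46.7 in WT LSK− and 86.3 and 42.8 in XistΔ/Δ LSK− cells. Its neighbor chr17:12725178-12726199, with its strongest summit 1282 bp away, went the other way, at 77.3 and 56.9 in WT LSK+, 85.5 and 53.5 in XistΔ/Δ LSK+, 24.9 and 0 in WT LSK−, and 44.9 and 0 in XistΔ/Δ LSK− cells. The pair thus differed in opposite directions between the cell types, by 62.8 points in favor of LSK− and by 50.9 points in favor of LSK+ (exact permutation p = 0.0556 and adjusted p = 0.627 for each). On the full lists the LSK+ element was the 1 imprinted region called higher in LSK+, a count that changed with the settings, as given below.

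**Figure D3:**
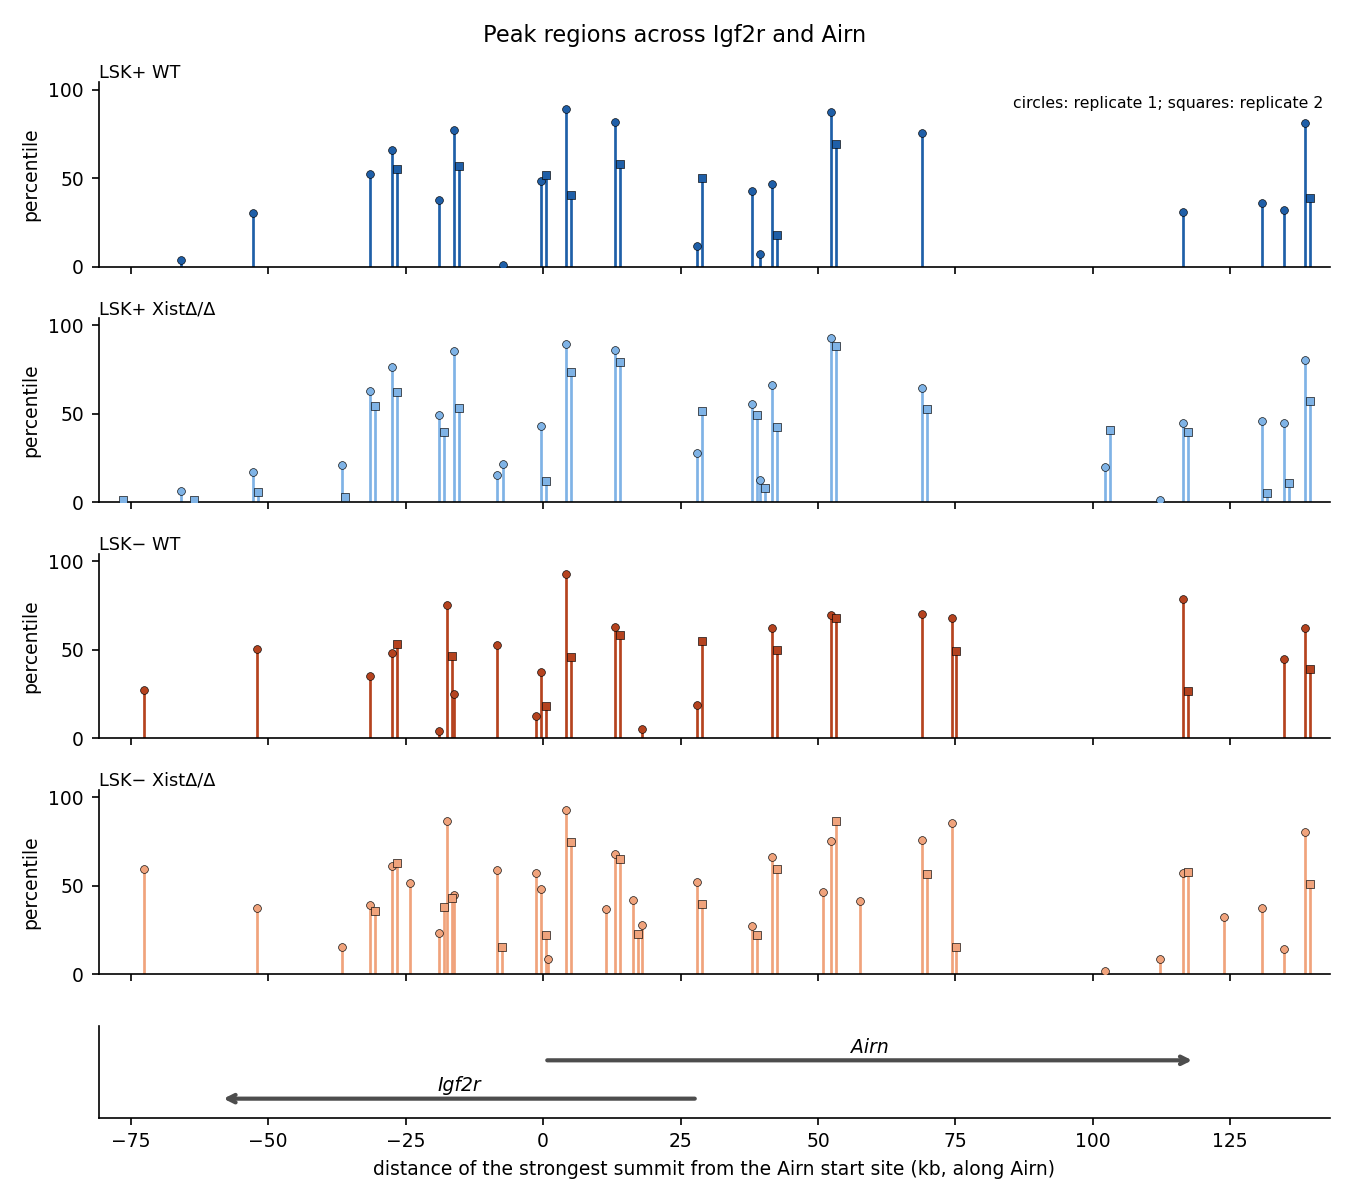
Peak regions across Igf2r and Airn as stems, with the percentile in each library as height (circles replicate 1, squares replicate 2) against the distance of the strongest summit from the Airn start site in kb. The upper 4 rows are the groups and the bottom row the extent and direction of both genes. The stems near −17 kb and 75 kb stand in LSK− only, and the taller stems near −16 kb in LSK+.

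Other regions listed in every library also lay in this domain. In an Airn intron, chr17:12793766-12794513 gave 87.2 and 69.4 in WT LSK+, 92.6 and 88.3 in XistΔ/Δ LSK+, 69.4 and 67.7 in WT LSK−, and 75.2 and 86.3 in XistΔ/Δ LSK− cells, with XistΔ/Δ above WT in both cell types. Near the Airn start, chr17:12745605-12746458 ranged from 40.6 to 93.0 and had every replicate 1 above every replicate 2. Another, chr17:12754468-12755491, stood at 57.8 to 86.0 in LSK+ and 58.5 to 68.1 in LSK− cells, which overlapped only in WT.

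Peg3 (chr7:6703892-6730431, minus strand) encodes a zinc-finger protein made from the paternal copy. Its promoter peak, in the intron with the YY1 matches shown above, stood at 68.5 and 56.1 in WT LSK+, 77.7 and 74.4 in XistΔ/Δ LSK+, 53.5 and 46.2 in WT LSK−, and 69.6 and 33.9 in XistΔ/Δ LSK− cells. LSK+ was higher than LSK− in each genotype, by 18.4 points (exact permutation p = 0.0556, adjusted over all genes 0.480). In WT LSK+ replicate 2 the strongest peak was a second one (chr7:6728368-6728912), and the main region (chr7:6729228-6729919) had 53.4 there and 53.5 in WT LSK− replicate 1, so that taken alone this region did not separate the cell types. The window held 3 regions in all.

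H19 and Igf2 were less accessible. H19 (chr7:142575529-142578143, minus strand) is a maternal noncoding RNA and Igf2 (chr7:142650766-142666816, minus strand) a paternal growth factor, and both respond to shared enhancers under the H19 control region. Of the promoter peaks assigned to H19 all lay 2219 to 2611 bp upstream of its TSS, inside the control window, at 49.3 and 1.898 in WT LSK+, 50.8 and 36.8 in XistΔ/Δ LSK+, 50.4 and 0 in WT LSK−, and 35.4 and 21.9 in XistΔ/Δ LSK− cells. Replicate 1 was higher than replicate 2 in each group, and neither comparison separated. Igf2 reached at most 36.04 (XistΔ/Δ LSK+ replicate 2) and had no promoter peak in 3 libraries. The peaks assigned to Igf2 all lay in an intronic region (chr7:142663962-142664653). Their summits were 2343 to 2609 bp downstream of a TSS, or 2663 bp upstream of another in XistΔ/Δ LSK− replicate 1. Regions nearer to an Igf2 TSS were listed in XistΔ/Δ LSK+ replicate 2 alone, at 0.608 and 0.565.

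At the Dlk1 and Meg3 locus, the peaks closest to the start sites were weak. A Meg3 intron and the window of the control region held stronger ones. Dlk1 (chr12:109452823-109463336, plus strand) encodes a paternal transmembrane protein of the Notch ligand family, and Meg3 (chr12:109541001-109571726, plus strand) a maternal noncoding RNA. Dlk1 stood at 11.4 and 1.70 in WT LSK+, 18.8 and 19.1 in XistΔ/Δ LSK+, 9.58 and 0 in WT LSK−, and 16.2 and 13.99 in XistΔ/Δ LSK− cells. These were all near the bottom of the lists, and they mix a peak 165 to 191 bp upstream of the TSS with another 2505 to 2645 bp upstream, neither of which separated the genotypes on its own. For Meg3 a promoter peak was listed in 4 libraries. In WT LSK+ replicate 1 it stood at 4.95, with its summit 163 bp upstream of the TSS. The other 3 lay 1998 to 2039 bp downstream, in a Meg3 intron (chr12:109542944-109543152), at 19.5 in WT LSK− replicate 2 and at 65.9 and 49.1 in XistΔ/Δ LSK− cells. No LSK+ library had a peak there, but neither had WT LSK− replicate 1, so that the cell types did not separate in WT. The narrower Meg3 window of the heat map, 2 kb on either side of the TSS, leaves out the peaks at 65.9 and 49.1.

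Between the genes lies the IG-DMR, the paternally methylated control region of the cluster. The strongest peak 10 to 16 kb upstream of Meg3 stood at 39.4 and 0 in WT LSK+, 45.1 and 65.02 in XistΔ/Δ LSK+, 49.7 and 57.6 in WT LSK−, and 64.3 and 75.8 in XistΔ/Δ LSK− cells. A single region (chr12:109530220-109530594) had no peak in WT LSK+, 29.7 and 65.02 in XistΔ/Δ LSK+, and the LSK− values just given. It was higher in XistΔ/Δ than in WT within each cell type, by 31.9 points. The window was set by distance alone, and the region's strongest summit lay 0.477 kb upstream of an annotated TSS of Gm27528. Of 10 ZFP57 hexamer matches in the window, 1 lay under a peak, so the methylated element itself may lie elsewhere in the window. Upstream of Dlk1, 2 intergenic regions were listed in all 8 libraries, 15.0 kb (chr12:109437437-109438282, 47.0 to 86.0) and 11.3 kb (chr12:109441243-109441814, 45.3 to 91.9) from its TSS.

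Over the 13 control and promoter windows, 7 had a peak in all 8 libraries: Kcnq1ot1, Airn, Igf2r, Peg3, the Grb10 island, Gs-alpha and exon 1A. When each list was shortened to its 29829 strongest peaks, as many as the shortest list holds, 3 did (Kcnq1ot1 at 83.1 to 94.1, the Grb10 island at 19.6 to 70.5 and exon 1A at 37.0 to 76.6).

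**Figure D4:**
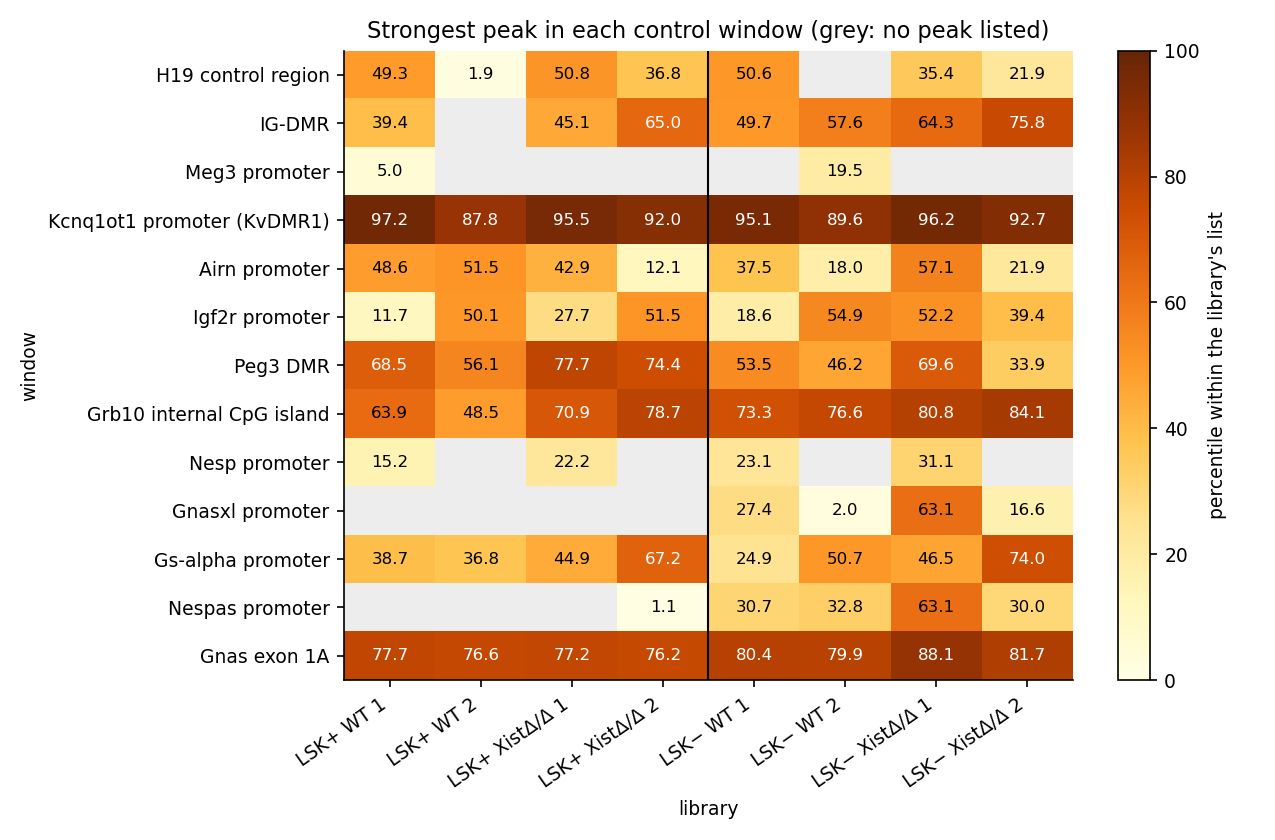
Percentile of the strongest peak (color and number) in each of 13 windows (rows) and 8 libraries (columns, LSK+ left of the line). Kcnq1ot1 and exon 1A are dark throughout, Gnasxl is filled in the 4 LSK− columns, and Nesp in the 4 replicate 1 columns. In the Nespas row the 63.1 of XistΔ/Δ LSK− replicate 1 is the Gnasxl peak, which lies in both windows.

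The genotypes were compared over both cell types, a feature being counted when both XistΔ/Δ libraries stood above both WT libraries, or the reverse, within LSK+ and within LSK−. Of the promoters 1 of 10, Dlk1, was higher in XistΔ/Δ, against 15.1% of all genes, and none was higher in WT, against 0.0258%. Of the regions 7 of 102 were higher in XistΔ/Δ, against 6.82% of all regions, and none in WT, against 0.00487%. The median difference was 8.36 points over the promoters and 8.01 over the regions, beside 6.71 and 7.30 over all genes and all regions. On the full lists these counts and medians of the imprinted loci stood near those of the genome, and the smallest adjusted p was 0.367 over genes and 0.813 over regions. No p under 0.05 was possible in this design before adjustment.

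XistΔ/Δ lists were longer than their same-numbered WT counterparts in either cell type, and with equal list lengths the split was gone: 0 of 8 promoters with a peak were higher in XistΔ/Δ and 0 in WT, against 0.73% and 1.05% of all genes, and 0 of 33 regions in either direction, against 0.62% and 0.624%. The median XistΔ/Δ minus WT difference then turned negative, at −5.87 points over the 8 promoters and −4.10 over the 33 regions, beside −0.265 over all genes and −0.180 over all regions. The Dlk1 difference was then −0.427 points. The 7 regions were the Grb10 island, the region in the IG-DMR window, the Airn intron region at chr17:12793766-12794513, and 4 others. WT replicate 2 of both cell types had not listed those 4 at all. Those 4 were 2 in Igf2r introns (chr17:12710091-12710831 and chr17:12722666-12723052), 1 in an Airn intron (chr17:12779523-12779798) and 1 in a Gnas intron (chr2:174312248-174312599). Pairing the libraries by replicate number raised the 7 to 13. No share over all regions is given for the pairing, so this rise is not set against the genome.

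The cell types were compared in the same way within each genotype. Of the promoters Peg3 was higher in LSK+, against 3.52% of all genes, and Gnas, through exon 1A, in LSK−, against 8.06%. Of the regions 1 was higher in LSK+, against 3.01% of all regions, and 7 in LSK−, against 5.84%. The median LSK+ minus LSK− difference was −2.95 points over the promoters and −0.801 over the regions, beside −1.09 over all genes and −1.09 over all regions. In 4 of the 7 LSK− regions, the Grb10 element, the Igf2r element, the internal Airn start and Gnasxl, all 4 LSK− libraries and no LSK+ library had a peak, as in 2.12% of all regions. The reverse was found for 0 of 102, against 0.586%. A lower percentile can come from fewer cells with open chromatin or from less open chromatin per cell, which cannot be told apart here.

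**Figure D5:**
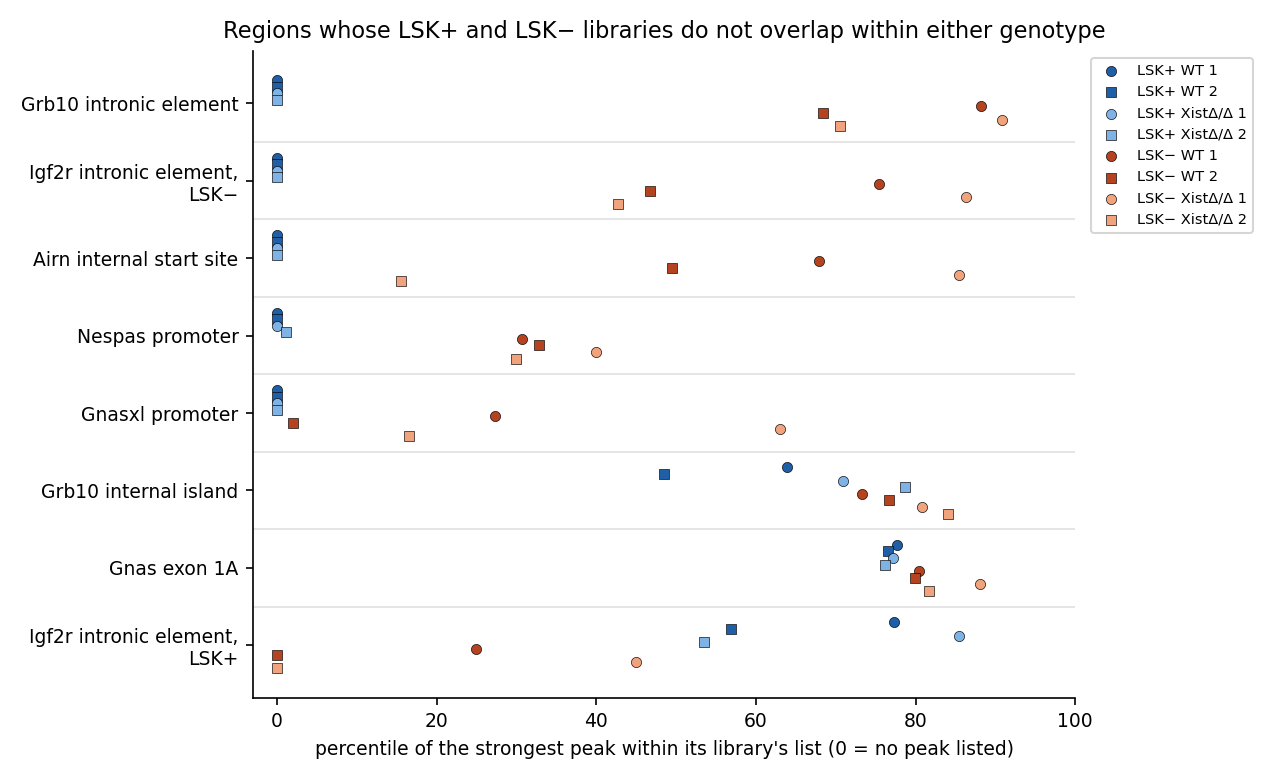
Percentile in each library (horizontal axis, 0 where no peak was listed) for the 8 regions whose LSK+ (blue) and LSK− (red) libraries did not overlap within either genotype. In the upper 5 regions the LSK+ points lie at or next to 0, the Grb10 island and exon 1A differ by 13.2 and 5.61 points on average, and the bottom region is higher in LSK+.

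At equal list lengths 2 regions were higher in LSK−, the Grb10 element and the intergenic region 15.0 kb upstream of Dlk1, against 7.05% of all regions, and 4 were higher in LSK+, against 8.39%. Those 4 were the Igf2r LSK+ element, the main Peg3 region and 2 Airn intron regions (chr17:12754468-12755491 and chr17:12793766-12794513). Among promoters Peg3 was again higher in LSK+, against 4.91% of all genes, and 0 of 8 in LSK−, against 6.43%. The median LSK+ minus LSK− difference changed sign, to 0.450 points over the 8 promoters and 0.858 over the 33 regions, beside −0.607 over all genes and 0.0553 over all regions. When libraries were paired by replicate number, the LSK+ count of 1 region became 3 and the LSK− count of 7 became 11. The LSK+ promoter count became 2 when paired. No share over all features is given for the pairing. Counts with 1 library left out are given further below, also without such a share.

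Replicates differed by base composition. Over the 13 imprinted regions that were listed in all 8 libraries and held fewer than 20 CpG in 300 bases, replicate 2 was lower than replicate 1 in every case on the mean of the 4 groups, with a median difference of −16.1 points. Over the 4 with 20 CpG or more (the Igf2r and Gs-alpha promoters, the Grb10 island and exon 1A) the median was 9.28 points in favor of replicate 2, and 2 of 4 were higher there. Over all regions listed in all 8 libraries the median was −13.7 points in the 13390 with fewer than 20 CpG and 0.306 points in the 7970 with 20 or more, of which 4187 were higher in replicate 2. The replicate number also marks a sequencing run in the deposited names and, in the study's list of libraries, a sequencer and read length, and since each group has 1 library of each number, its part in the comparisons between groups was not tested beyond the paired counts above.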

How the data were processed

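ATAC-seq libraries of LSK+ and LSK− cells of WT and XistΔ/Δ mice were used, 2 per group and 8 in all, grouped by the deposited titles. Per the study's methods, the authors trimmed reads with Trim Galore, aligned them to mm10 with Bowtie2 (2.3.5.1), dropped mitochondrial alignments and those with a quality under 30 with SAMtools (1.10), and called peaks in each library with MACS2 (2.2.7.1) in paired-end mode at q of 0.01, with no control library named. A Tn5 shift and duplicate removal for these libraries are not given in the sources used here. The deposited peak lists hold, for each peak, an integer score, the fold enrichment at the summit (a ratio), −log10 p, −log10 q and the summit position as the authors' caller wrote them. They hold no counts, so that no count test was run. The depth that the study lists for each library was not used here.

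Peaks were ranked within a list by −log10 p, as percentiles. Regions were merged peaks (1 bp overlap, summit inside). TSSs and gene bodies came from GENCODE M21 on GRCm38. Summit fragments and local background were solved from fold and p. Control windows were set by distance from annotated TSSs. Genotypes were compared within cell type and cell types within genotype by an exact two-sided permutation test of the mean difference (36 arrangements, smallest p 0.0556), adjusted (Benjamini-Hochberg) over all genes or regions, with non-overlap of both libraries as the call. The calls and the solved fragments were checked on simulated data. For the calls, the simulation put independent noise on promoters listed in all 8 libraries. It had no absent peaks, list-length differences or shared replicate effect, so it does not cover how these affect the calls. Same-numbered libraries deviated together (r of their replicate differences 0.396 to 0.495 over promoters and 0.202 to 0.427 over regions, across features), so paired counts are given where they change a count by over 1.5 times. A shared run code in the deposited names marks each replicate number. All 10 genes are named by rule, and from the lists of other imprinted genes and imprint factors those called in a comparison or at the extremes. Some marker genes are not reported here. The members and the lists were chosen with earlier results of these data known. Alternatives were equal list lengths, ranking by fold, −log10 q of at least 5, TSSs within 1 kb, 50% coverage of a region, the pairing, and leaving out each library. Ranking by fold at equal list lengths, the GATA and NF-Y letters and the CpG classes were chosen after seeing the data. Python 3.11.15 with numpy 2.4.6, pandas 2.3.3 and scipy 1.17.1 was used.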

Additional observations from a re-analysis of the deposited data

How the results depend on the processing

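Counts of called imprinted features changed with list length, ranking, overlap rule, pairing and the libraries included. Shares over all features are given only for the full lists and for equal list lengths. Counts under the other settings are therefore not set against the genome. At equal list lengths the XistΔ/Δ counts went from 1 promoter and 7 regions to 0 and 0, the LSK− counts from 1 promoter and 7 regions to 0 and 2, the LSK+ regions from 1 to 4, and the windows with a peak in every library from 7 to 3. With equal lengths and ranking by fold, the promoter counts were 0 in every direction. The shares of all genes were then 0.867% for XistΔ/Δ, 2.66% for WT, 3.13% for LSK+ and 3.51% for LSK−. XistΔ/Δ regions were 0, against 0.926% of all regions, LSK− regions 1, against 5.3%, and windows 2. Ranking by fold alone gave 0 promoters in XistΔ/Δ, LSK+ and LSK−, and 2 LSK+ regions. A −log10 q of at least 5 left 0 LSK+ promoters. TSSs within 1 kb gave 0 promoters in XistΔ/Δ, 0 in LSK+ and 2 in LSK−. With 50% coverage 0 LSK+ and 2 LSK− regions were called. Under the replicate block, XistΔ/Δ regions were 13, LSK+ promoters 2, LSK+ regions 3 and LSK− regions 11, and the block changed no other count by over 1.5 times.

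Leaving out 1 library at a time, windows in every library ranged from 7 to 8, LSK+ promoters from 1 to 3 (3 without WT LSK+ replicate 2 or WT LSK− replicate 1), LSK− promoters from 1 to 2 (2 without WT LSK− replicate 1), WT promoters from 0 to 1 (1 without XistΔ/Δ LSK− replicate 1), XistΔ/Δ promoters from 1 to 2 (2 without XistΔ/Δ LSK− replicate 2), LSK+ regions from 1 to 17, LSK− regions from 7 to 11, XistΔ/Δ regions from 7 to 12 and WT regions stayed at 0. An arm left with 1 library is called on that library alone. The cause of these moves was not tested beyond the construction of each setting.

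Of single promoters, the Dlk1 genotype difference was −0.427 at equal lengths and −0.639 with fold ranking as well, and the Gnas LSK+ minus LSK− difference was 1.94 under the latter. Dlk1 passed between cell types (2.80 points) under the block. Of 280 values of single promoters under other settings, 217 kept direction and call, 43 changed direction with no change of call, 17 gained or lost a call in the same direction, and 3 changed both, as given above. Peg3 lost its LSK+ call under fold ranking at either list length, at the stricter q and with TSSs within 1 kb. With 2 libraries per group, peaks near the listing limit cannot be told from absent ones.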

Other observations

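Other imprinted genes were described from a list of 40, of which 33 had a promoter peak and 18 had one in all 8 libraries. Snrpn, a splicing-factor gene of the Prader-Willi cluster, was listed in LSK+ alone, with WT libraries at 55.1 and 30.2 and XistΔ/Δ libraries at 13.8 and 9.50, and Ndn of the same cluster was listed in 3 LSK+ libraries and no LSK− library. Peg13, a noncoding RNA inside Trappc9, went the other way, the LSK+ libraries standing at 70.8, 62.5, 68.1 and 75.3 and the LSK− libraries at 82.9, 75.4, 86.2 and 81.7. Against the 3.52% of all genes higher in LSK+ and 8.06% higher in LSK−, 2 of the 33 were called in LSK+ (Snrpn and Usp29, whose promoter peak is the Peg3 peak) and 2 in LSK− (Nespas and Peg13). The Nespas values came from peaks of the Gnas window described above. Its 63.1 in XistΔ/Δ LSK− replicate 1 is the Gnasxl peak, and its 15.2 and 22.2 in LSK+ are the Nesp peak. Ube3a, Inpp5f, Tssc4, Copg2, Trappc9 and Commd1 had the strongest promoters, ranging from 90.05 to 99.8 over the libraries. No promoter peak was listed for Mcts2, Zfp264, Magel2, Rtl1, Rian, Mirg or Slc22a2. In XistΔ/Δ, Ascl2, Kcnq1, Rasgrf1 and Trappc9 were higher and none was lower, against 15.1% and 0.0258% of all genes.

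All 9 genes for factors that read or keep imprints had a promoter peak in every library. Yy1 stood at 91.3 to 99.6 and Dnmt1, the maintenance methyltransferase, at 91.3 to 97.4, whereas Zfp57 stood at 6.31 to 59.7. Of the 9, Trim28, Dnmt1, Rad21 and Uhrf1 were higher in XistΔ/Δ, against 15.1% of all genes, and none in WT, against 0.0258%. Rad21 alone was higher in LSK−, against 8.06%, and none in LSK+, against 3.52%. These lists were chosen with earlier results known, and the genotype counts carry the same dependence on list length as those of the imprinted loci.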
